A study of Mus musculus with 9 samples.

Results

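The RNA-seq libraries described here compared mouse embryonic stem cells in which Fam60a was knocked down with control cells carrying a non-targeting hairpin. They are 6 of the 9 libraries of a series on the Sin3a-Hdac complex, chosen by their titles: 3 of cells with a hairpin against Fam60a and 3 titled T2SC, which were taken as the scrambled controls because the titles name neither target. The other 3 libraries come from a Sin3a knockdown made in the same way and serve only as a comparison at the end. All cells were of the E14 line, a male mouse embryonic stem cell line, grown on gelatin in serum medium with LIF, the cytokine that maintains the undifferentiated state. Each hairpin was delivered by a lentivirus from the pLKO.1 vector, infected cells were selected with puromycin for several days, and the surviving cells were passaged 3 times before total RNA was taken. The protocol names 3 biological replicates, with controls generated in parallel, and does not say how many hairpins, clones or integration sites a replicate holds. The knockdown libraries held 6475568, 7674887 and 6344213 counted reads and the control libraries 6072157, 6896141 and 6631622 (replicates 1 to 3).

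Fam60a, named Sinhcaf in current annotation, is a subunit of the SIN3 complex, in which the scaffold proteins Sin3a and Sin3b bring the histone deacetylases Hdac1 and Hdac2 to promoters. The complex has no sequence preference of its own and is recruited by DNA-binding factors, among them the Mad (Mxd) partners of Max, and it is known as a corepressor, although it also sits at active genes. In embryonic stem cells it is known to be needed for proliferation and survival.

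The targeted transcript was checked first. Sinhcaf (ENSMUSG00000039985, GRCm38 chr6:148921035-148946467, minus strand) measured 13.4, 14.2 and 13.3 CPM (the counts-per-million unit, in which a gene’s reads are scaled to the library total with TMM factors, and not to gene length) in control replicates 1 to 3 and 5.68, 6.65 and 5.15 CPM in the knockdown. All 3 knockdown libraries lay below all controls, at 42.8% of the control mean. The log2 fold change was -1.22 ± 0.16 (SE; edgeR quasi-likelihood test with libraries paired by replicate number, Benjamini-Hochberg adjusted p = 0.00108), and the fall was called under every alternative tried (adjusted p from 6.99e-06 to 0.0451). These levels rest on few reads, 82 to 97 in a control library and 32 to 51 in a knockdown library. Sin3a, the scaffold, also fell, from 312, 284 and 272 to 231, 219 and 211 CPM, with no overlap of the groups (log2 fold change -0.39 ± 0.034, adjusted p = 0.000197). Of 25 tested subunits of the complex 6 fell, Sinhcaf and Sin3a included (2 without the pairing), and 1 rose, the forkhead factor gene Foxk1 (133 ± 5.6 to 164 ± 15.4 CPM, mean ± SD, n = 3 per group here and below). In all 28% of the subunits were called, against 40.1% of all tested genes. Of all tested genes 19% fell with the pairing and 5.68% without it, so the falls in this list are not far from the background. The histone demethylase gene Kdm5a fell from 184 ± 6.46 to 159 ± 10.5 CPM (adjusted p = 0.00491, 0.0817 without the pairing and 0.00088 to 0.527 over the alternatives), and Tet1, a DNA demethylase that binds Sin3a, from 668 ± 98.1 to 497 ± 91.1 CPM (adjusted p = 0.000155, 0.105 without the pairing and 2.67e-12 to 0.794 over the alternatives). The deacetylase genes did not pass the test, Hdac1 with 23.6 ± 1.09 and 22 ± 0.682 CPM and Hdac2 with 161 ± 7.43 and 150.1 ± 8.55 CPM, and neither did the paralogous scaffold Sin3b (log2 fold change 0.045 ± 0.038, adjusted p = 0.388). Off-target effects of the hairpins were not tested.

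Over all genes the knockdown and control libraries differed widely but mostly by little. Of 14230 tested genes 5713 passed the threshold of an adjusted p of 0.05, which is 40.1%. Of these 3004 were higher (21.1% of those tested) and 2709 lower (19%), and their median absolute log2 fold change was 0.45. Changes of at least 2-fold were called for 636 higher (4.47%) and 645 lower genes (4.53%). The number of calls depended on the pairing: with the replicate number left out of the model 1827 genes were called (12.8%, 1019 or 7.16% higher and 808 or 5.68% lower), 1826 of them among the 5713. Between 50 and 100 CPM the log2 differences within the 3 pairs had a median SD of 0.0862. Counting reads alone gives 0.0933 for such a difference. The controls among themselves had a median SD of 0.111, which is a spread of single libraries and not of differences. An SD of 3 values lies below the true SD more often than above it, so the medians of the observed SDs understate the spread. At such precision small differences pass, so sizes are given with every call, and a gene named as risen or fallen was also called without the pairing unless its adjusted p without it is printed. Strong changes were most frequent among weakly expressed genes: 24.4% of genes between 2 and 5 CPM were called with at least a 2-fold change, but 7.46% between 20 and 50 CPM and 0.22% above 200 CPM. Of all called genes, 320 passed in each of the 17 alternatives described in the closing section, 254 of them with at least a 2-fold change.

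**Figure D1:**
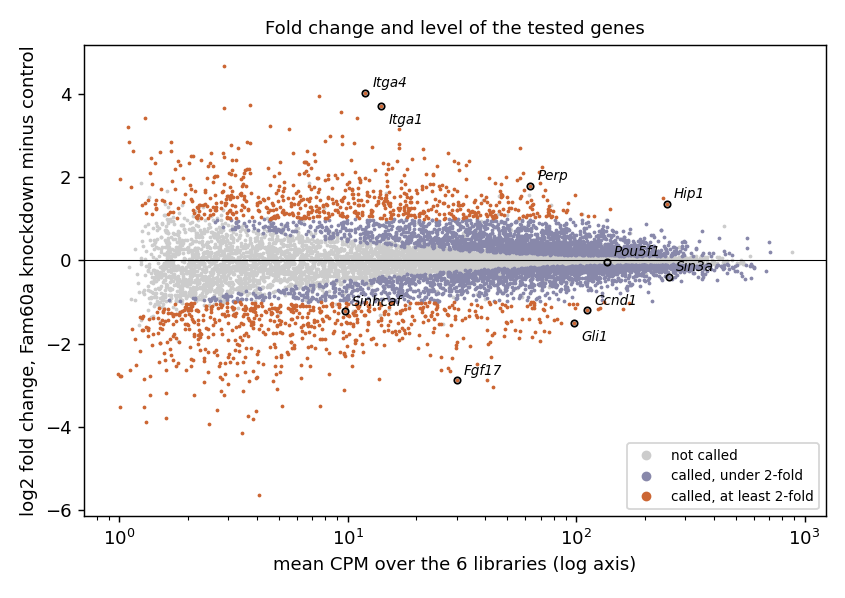
Each point is 1 of the 14230 tested genes, with its mean CPM over the 6 libraries on a log axis and its log2 fold change (Fam60a knockdown minus control) on the vertical axis; grey points were not called, violet points were called with less than a 2-fold change and orange points were called with at least a 2-fold change. Circled genes are discussed in the text, and the 1281 orange points thin out above 100 CPM, where most called genes changed by less than 2-fold.

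Among genes averaging 10 CPM or more the largest rises were those of 2 integrin subunits, receptors by which cells hold on to extracellular matrix. Itga4, whose product binds fibronectin and VCAM, measured 0.98, 2.34 and 0.756 CPM in the controls and 24.9, 28.1 and 14.5 CPM in the knockdown. It was close to the detection floor in every control (5 to 16 reads) and at 90 to 216 reads in each knockdown library, a log2 fold change of 4.03 ± 0.23 (adjusted p = 5.43e-05). Itga1, the alpha subunit of a collagen receptor, rose from 1.31, 2.48 and 2.12 to 14, 33.2 and 31.2 CPM (log2 fold change 3.71 ± 0.17), with knockdown replicate 1 the lowest of its group but still above all controls. Both rises were called in all 17 alternatives. Of 19 tested integrin subunits 8 rose and 4 fell, 4 and 3 of them by at least 2-fold. Itga8, an alpha subunit known from kidney development, rose from 10.5, 15.9 and 6.5 to 48.7, 81.8 and 40.7 CPM without overlap. The laminin receptor subunits Itga3 and Itgb4 rose from 177 ± 28.4 to 293 ± 19.7 and from 50.9 ± 17.2 to 106 ± 27.2 CPM. Among the falls were subunits known from leukocytes, as Itga4 also is. Itgal fell from 25.7 ± 1.36 to 7.91 ± 2.88 CPM, Itgam from 7.09 ± 1.98 to 0.979 ± 0.374 CPM and Itgb7 from 87.9 ± 11.3 to 46.3 ± 11.1 CPM. Itga9 fell from 111, 119 and 89 to 49.6, 51.6 and 26.7 CPM, with its lowest value in knockdown replicate 3 and no overlap. The median log2 fold change of the 19 subunits was 0.098, against -0.012 over all tested genes.

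Among other large rises were matrix, receptor and metabolic genes with little expression in the controls. Col5a2, a fibrillar collagen chain, rose from 2.29, 3.36 and 4.38 to 15.7, 24.4 and 26.4 CPM, and Adamts7, a secreted metalloprotease, from 10.6, 16.2 and 18.4 to 75.6, 109 and 111 CPM. For both genes the lowest knockdown library was over 3 times the highest control. The cardiac T-box factor gene Tbx20 rose from 3.59, 4.82 and 4.99 to 27, 31.5 and 29.3 CPM and Rbm20, a splicing factor of heart muscle, from 8.33, 7.73 and 7.56 to 40.9, 50.4 and 49.9 CPM, each with a narrow spread in both groups. Adrb1, a beta adrenergic receptor gene, rose by 2.47 ± 0.14, the retinal glutamate receptor gene Grm6 by 3.42 ± 0.20 and the ectonucleotidase gene Entpd3 by 2.67 ± 0.14 on the log2 scale. The aldehyde oxidase gene Aox3 and the tryptophan-degrading enzyme gene Ido2 rose by 3.15 ± 0.29 and 2.82 ± 0.26, and Fam196a by 2.79 ± 0.15. By absolute level, the largest gains were those of genes already well expressed. Hip1, an endocytic adaptor that binds huntingtin, rose from 120.4, 145 and 154 to 347, 360.2 and 372 CPM (log2 fold change 1.37 ± 0.052, adjusted p = 2.91e-05), without overlap, and was called under all 17 alternatives. The architectural chromatin protein gene Hmga2 rose from 50.0 ± 16.7 to 148 ± 9.84 CPM, the chromatin remodeller gene Atrx from 289.7 ± 22.8 to 401 ± 36.5 CPM and the adhesion gene Kirrel from 196 ± 26.5 to 290.5 ± 29.7 CPM. Ankrd33b rose from 143 ± 47.1 to 259 ± 50.4 CPM (adjusted p = 0.000411, 0.0618 without the pairing and 2.63e-18 to 0.18 over the alternatives).

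The largest falls included FGF ligand genes and genes of muscle, vessel and meiosis. Fgf17 fell from 54.2, 51.7 and 53.4 to 7.53, 8.99 and 4.83 CPM and Fgf15, an ileal hormone in the adult and a ligand of the early embryo, from 24.2, 21 and 27.1 to 3.23, 3.52 and 3.06 CPM. Their log2 fold changes were -2.88 ± 0.16 and -2.86 ± 0.17, and no knockdown library came near a control. Actn3, the alpha-actinin of fast muscle fibres, fell from 86.9, 72.5 and 72.4 to 12.9, 11.1 and 4.18 CPM and the clotting protein gene Vwf from 68.6, 77.8 and 70.0 to 11.7, 11.9 and 5.79 CPM. Knockdown replicate 3 was the lowest of its group for both. The same library was also lowest for the cartilage collagen gene Col9a2 (9.52, 10.4 and 3.06 CPM in the knockdown, 48.7 ± 1.29 in the controls), the meiotic cohesin gene Smc1b (10.9, 10.8 and 2.25 against 47.3 ± 4.53 CPM) and Armcx2 (15.2, 13.6 and 4.83 against 62.6 ± 0.877 CPM). The calcium release channel gene Ryr3, the phospholipase gene Pla2g4e, Plxdc1 and the endosomal protein gene Zfyve28 fell with log2 fold changes of -2.34 ± 0.35, -2.54 ± 0.24, -2.63 ± 0.16 and -2.33 ± 0.30. Over the 645 genes that fell by at least 2-fold the median log2 difference was -1.25, -1.20 and -1.81 in pairs 1, 2 and 3. Among the genes with the largest absolute losses were Adgrl1, the adhesion receptor latrophilin (287 ± 29 to 145 ± 14.6 CPM), Bahcc1, a BAH domain chromatin protein (222 ± 37.7 to 100.0 ± 31.9 CPM), and the histone demethylase gene Kdm5b (410.4 ± 20.9 to 312 ± 12.3 CPM). The ubiquitin ligase gene Huwe1 fell from 735 ± 76.9 to 618 ± 48.2 CPM (adjusted p = 0.00402, 0.112 without the pairing and 3.54e-08 to 0.586 over the alternatives) and Mdn1, which acts in ribosome assembly, from 484 ± 102 to 347 ± 52.8 CPM (adjusted p = 0.000198, 0.0972 without the pairing and 5.07e-11 to 0.261 over the alternatives).

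**Figure D2:**
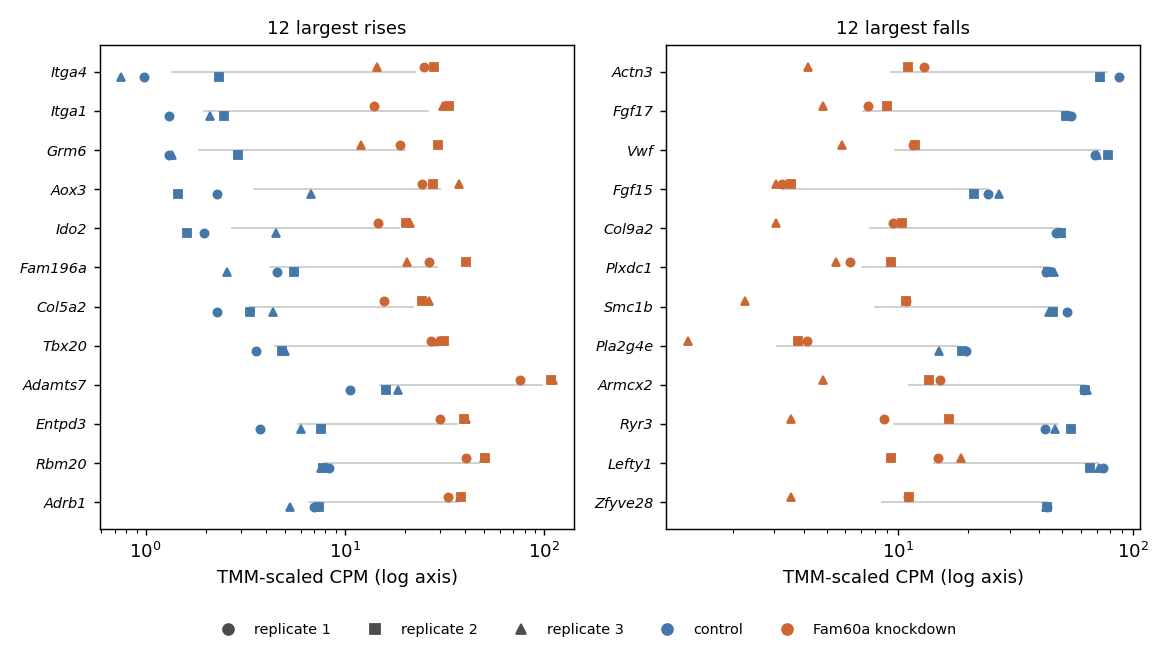
TMM-scaled CPM on a log axis for the 12 genes with the largest rises (left) and the 12 with the largest falls (right) among called coding genes averaging 10 CPM or more; symbols mark replicates 1 to 3, blue the controls, orange the Fam60a knockdown, and the grey line joins the 2 group means. No gene shown has overlapping groups, which the choice of genes required, and knockdown replicate 3 is the lowest library for most of the falls, while Fgf15 has its knockdown libraries close together and Lefty1 has its highest knockdown value in replicate 3.

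To compare the sequence around genes that rose with that of genes that fell, RefSeq promoter windows (250 bases upstream and 50 downstream of the start, GRCm38.p6) were matched by symbol to 10460 of the 13255 tested protein-coding genes. The 250 upstream bases of the integrin genes with the largest rises and of the Hedgehog genes Ptch1 and Gli2, with large absolute falls, are shown 5′ to 3′ on the strand of the gene, with CG dinucleotides in capitals, because the windows differ in that feature. They lie at chr2:79255176-79255425 (plus strand), chr13:115101965-115102214, chr13:63565736-63565985 and chr1:119053620-119053869 (all minus strand) for Itga4, Itga1, Ptch1 and Gli2. The Ptch1 window lies within the gene's GENCODE span, whose first start is further upstream.
Itga4: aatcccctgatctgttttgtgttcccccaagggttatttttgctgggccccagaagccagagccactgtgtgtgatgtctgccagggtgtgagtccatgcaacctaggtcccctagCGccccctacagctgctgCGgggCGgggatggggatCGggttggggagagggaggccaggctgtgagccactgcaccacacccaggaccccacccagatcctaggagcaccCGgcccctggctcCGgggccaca
Itga1: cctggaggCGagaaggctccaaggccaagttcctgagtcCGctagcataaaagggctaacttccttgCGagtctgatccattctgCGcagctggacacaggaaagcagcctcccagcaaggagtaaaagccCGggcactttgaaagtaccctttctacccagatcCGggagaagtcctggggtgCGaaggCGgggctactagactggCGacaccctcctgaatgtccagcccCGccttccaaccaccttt
Ptch1: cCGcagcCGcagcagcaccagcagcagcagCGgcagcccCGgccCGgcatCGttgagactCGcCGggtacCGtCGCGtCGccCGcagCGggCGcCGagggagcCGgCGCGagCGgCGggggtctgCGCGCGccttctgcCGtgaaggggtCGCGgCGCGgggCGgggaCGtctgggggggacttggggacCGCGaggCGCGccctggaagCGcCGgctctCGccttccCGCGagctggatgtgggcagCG
Gli2: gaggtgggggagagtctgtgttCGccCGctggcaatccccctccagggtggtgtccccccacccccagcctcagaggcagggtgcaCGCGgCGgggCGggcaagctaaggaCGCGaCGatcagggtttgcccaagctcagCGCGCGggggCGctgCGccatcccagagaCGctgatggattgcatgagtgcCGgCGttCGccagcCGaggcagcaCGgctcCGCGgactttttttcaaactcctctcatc

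The upstream sequence of Itga4 held 6 CG dinucleotides and that of Itga1 10, against 41 in that of Ptch1 and 22 in that of Gli2. The observed to expected ratio of CG was 0.234, 0.485, 1.08 and 0.78 in that order. Over the full windows of all 10460 genes the median ratio was 0.761. It was 0.61 for the 439 genes that rose by at least 2-fold and 0.469 for the 392 that fell by at least 2-fold, so the medians of strongly changed genes were lower in both directions, and Ptch1 and Gli2 are not typical of the falls. The motif CCGGAAG, which ETS factors bind, was searched on both strands and stood in 17.7% of all windows, in 5.69% of the risen and in 5.36% of the fallen. For the E-box CACGTG the shares were 10.3%, 7.06% and 5.36%, and for the GC box GGGGCGGGG 22.5%, 19.4% and 13.5%. Strong changes were also most frequent at low expression, and CG-poor promoters are often those of weakly expressed genes. Among genes with a mean of 10 to 50 CPM the median ratio was 0.72 for all 3139, 0.68 for the 186 risen and 0.543 for the 115 fallen, and CCGGAAG stood in 15.9%, 9.14% and 1.74% of the windows. These values are descriptions with no test, and they hold no evidence of binding.

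Receptor and effector genes of the Hedgehog pathway, in which a ligand relieves the inhibition of Smo by its receptor so that Gli factors activate their targets, were lower. This list was drawn up after the values of some members had been seen, so its counts are a description. Of 24 tested members 11 fell, 9 of them by at least 2-fold, and 4 rose. Without the pairing 6 fell. Of all tested genes 19% fell, 4.53% by at least 2-fold, and 21.1% rose, and 5.68% fell without the pairing. Gli1, the Gli factor that is itself a target of the pathway, fell from 132, 155 and 147 to 42.7, 57.7 and 51.5 CPM (log2 fold change -1.51 ± 0.053, adjusted p = 2.04e-05). The receptor gene Ptch1, also a known target, fell from 178, 185 and 166 to 74.6, 90.8 and 71.6 CPM. Gli2, the main activator, fell from 239, 232 and 219 to 114, 131 and 91.9 CPM. For these 3 genes the control libraries lay close together and the groups did not come near each other. Genes of the primary cilium, on which Hedgehog signalling runs, followed with a wider spread: Evc measured 107, 123 and 98.1 CPM in the controls and 32.9, 44.2 and 10.8 CPM in the knockdown and Evc2 107, 114 and 84.1 and 46.4, 49.8 and 15.3 CPM, lowest in knockdown replicate 3. Without the pairing Evc was still called and Evc2 was not (adjusted p = 0.0213, 0.0556 without the pairing and 2.25e-13 to 0.206 over the alternatives). The ciliary receptor gene Gpr161 fell from 10.7 ± 2.03 to 3.55 ± 1.92 CPM. Smo itself fell from 93.9, 86.5 and 71.7 to 53.6, 50.0 and 24 CPM (adjusted p = 0.0072, 0.0606 without the pairing and 1.82e-10 to 0.171 over the alternatives), and Gli3, the main repressor, from 39 ± 7.29 to 27.4 ± 10.5 CPM (adjusted p = 0.0128, 0.302 without the pairing and 0.000635 to 0.675 over the alternatives). The 4 rises all lost their calls without the pairing: the ligand gene Ihh measured 2.45, 2.04 and 15.6 CPM in the controls and 7.07, 4.56 and 33.2 CPM in the knockdown (adjusted p = 0.00169, 0.51 without the pairing and 0.000122 to 0.927 over the alternatives), with control replicate 3 above 2 of the knockdown libraries. The coreceptor gene Boc had 19.3 ± 5.35 and 39.4 ± 11.6 CPM (adjusted p = 0.0179, 0.0501 without the pairing and 1.08e-08 to 0.127 over the alternatives), Scube2 15.6 ± 13 and 33.4 ± 16.3 CPM (adjusted p = 0.00364, 0.283 without the pairing and 3.52e-08 to 0.62 over the alternatives), and Gas1 13.4 ± 4.05 and 17.5 ± 5.4 CPM (adjusted p = 0.04, 0.465 without the pairing and 0.00904 to 0.859 over the alternatives). The median log2 fold change over the list was -0.15.

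**Figure D3:**
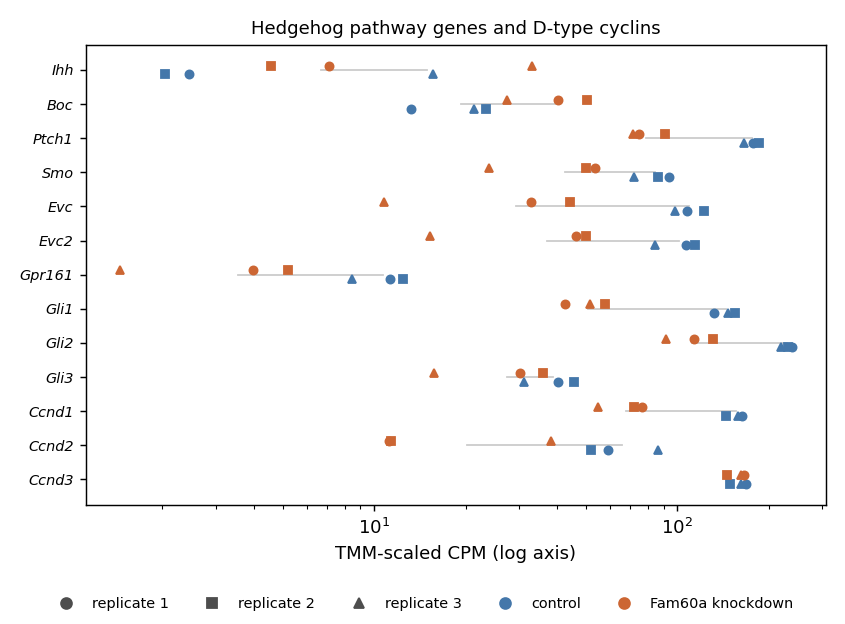
TMM-scaled CPM per library on a log axis for Hedgehog ligand, receptor, cilium and Gli genes and for the D-type cyclin genes; blue symbols are controls, orange symbols Fam60a knockdown libraries, and symbol shapes mark replicates 1 to 3. Ptch1, Gli1, Gli2 and Ccnd1 separate in every library, while Ihh overlaps because control replicate 3 is high.

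Among genes of the cell cycle, both Ccnd1 and Ccnd2 fell by at least 2-fold. Ccnd1, the D-type cyclin that drives entry into S phase and that Gli factors are among those known to activate, fell from 163, 144 and 159 to 76.6, 71.8 and 54.9 CPM. No knockdown library came near the lowest control, and the log2 fold change of -1.19 ± 0.10 (adjusted p = 0.000599) was called under all 17 alternatives. Ccnd2 measured 59, 51.8 and 86.2 CPM in the controls and 11.2, 11.3 and 38.1 CPM in the knockdown, with replicate 3 the highest of both groups, and its call ended with all 6 libraries unpaired (adjusted p = 0.00726, 0.069 without the pairing and 1.59e-13 to 0.352 over the alternatives). Of 13 cyclins and cyclin-dependent kinases tested 3 fell, Ccnd1 and Ccnd2 included, and the other 10 did not pass. Without the pairing 1 fell. Among inhibitors of these kinases Cdkn2c rose from 4.41, 3.79 and 6.65 to 17.8, 15.2 and 15 CPM, without overlap, while the maternally expressed inhibitor gene Cdkn1c fell from 81.7 ± 7.27 to 49.5 ± 5.11 CPM. Of 32 G1/S and DNA replication genes 12 fell (19% of all tested genes did) and 3 rose, with a median log2 fold change of -0.092. Without the pairing 1 fell and 1 rose. Of 22 mitotic genes 3 fell and 2 rose, and 1 passed without the pairing. Cell numbers and cycle phases were not analysed here.

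Most tested targets of p53, the transcription factor of the DNA damage response, were higher. Of 30 tested targets 19 rose, against 21.1% of all tested genes, and 1 fell. The median log2 fold change was 0.33, against -0.012 over all genes, and most rises were small: 2 reached 2-fold. Without the pairing 11 rose, and DESeq2 called 14. Perp, a desmosomal effector of p53-dependent death, rose from 29.1, 31.7 and 23.9 to 97.7, 90.0 and 106 CPM, with all knockdown libraries far above the controls. The kinase gene Plk2 rose from 54 ± 10.5 to 109.9 ± 14.2 CPM, the antiproliferative gene Btg2 from 61.8 ± 3.37 to 108 ± 5.27 CPM, and Pmaip1, the proapoptotic BH3-only gene Noxa, from 37.5 ± 4.26 to 72.1 ± 5.95 CPM. Cdkn1a, the p21 inhibitor gene, moved from 67.1 ± 6.26 to 88.9 ± 15.8 CPM (adjusted p = 0.0146, 0.0951 without the pairing and 0.000644 to 0.48 over the alternatives). Trp53 itself measured 172 ± 2.26 and 176 ± 7.6 CPM (log2 fold change 0.034 ± 0.04, adjusted p = 0.533). Among 15 genes of the Bcl2 family 5 rose and 4 fell, 3 and 1 without the pairing. Bcl2l11, the proapoptotic gene Bim, rose from 66.8 ± 4.21 to 111 ± 17.9 CPM, and Hrk, another BH3-only gene, fell from 33.2 ± 7.36 to 15.4 ± 8.46 CPM (adjusted p = 0.0343, 0.141 without the pairing and 2.68e-06 to 0.338 over the alternatives).

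The core pluripotency factors kept much of their level, while 9 of 16 genes of the primed, postimplantation-like state were lower. Pou5f1, which encodes Oct4, measured 141, 135 and 135 CPM in the controls and 137, 124 and 144 CPM in the knockdown, with overlapping groups and no call (log2 fold change -0.03 ± 0.049, adjusted p = 0.655). Sox2, its partner, moved from 219 ± 14.6 to 187 ± 12 CPM (adjusted p = 0.00409, 0.0853 without the pairing and 1.84e-06 to 0.312 over the alternatives) and Nanog from 166 ± 10.4 to 132 ± 15 CPM (adjusted p = 0.00091, 0.056 without the pairing and 3.66e-06 to 0.466 over the alternatives). The self-renewal factor genes Esrrb, Klf4 and Zfp42 passed with the pairing at log2 fold changes of -0.13 ± 0.039, -0.20 ± 0.04 and -0.23 ± 0.047, and none did without it (adjusted p = 0.298, 0.169 and 0.102, with ranges of 6.74e-05 to 0.735, 8.46e-05 to 0.799 and 0.000415 to 0.651 over the alternatives). Prdm14, a regulator of naive pluripotency and germ cells, fell from 80.2, 70.6 and 67.6 to 34.1, 26.6 and 17.9 CPM, with the knockdown libraries below all controls (log2 fold change -1.49 ± 0.12). Tcf7l1, a repressor of pluripotency genes in the Wnt pathway, fell from 141 ± 5.96 to 89.3 ± 6.28 CPM, Klf2 from 145 ± 10.8 to 105 ± 7.59 CPM and Fgf4 from 205 ± 4.53 to 157 ± 0.597 CPM. In all 10 of 24 general and naive pluripotency genes fell and 1 rose, Tbx3 (log2 fold change 0.18 ± 0.037, adjusted p = 0.0916 without the pairing and 5.08e-06 to 0.427 over the alternatives). Their median log2 fold change was -0.077, and without the pairing 5 fell.

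Of 16 genes of the primed state 9 fell and 2 rose, with a median log2 fold change of -0.43, and without the pairing 8 fell. Of all tested genes 19% fell with the pairing and 5.68% without it. Besides Fgf15 these included Lef1, a Wnt effector, which fell from 16.3, 12.1 and 23.1 to 3.07, 1.43 and 6.76 CPM, and Crmp1, a neuronal cytoskeleton gene, which fell from 119, 114 and 128 to 42.7, 49 and 42.8 CPM. Neither gene's groups overlapped. Zic2, a zinc finger factor of the epiblast, fell from 38 ± 4.05 to 13.2 ± 1.93 CPM and Sox4 from 99.5 ± 14.4 to 59.1 ± 11.9 CPM. The 2 that rose were Dusp6, an ERK phosphatase (111 ± 11.4 to 171 ± 1.97 CPM), and Dnmt3b, the de novo DNA methyltransferase (247 ± 46.1 to 336 ± 34.5 CPM, adjusted p = 0.0706 without the pairing and 6.04e-11 to 0.202 over the alternatives). In the LIF pathway 7 of 14 genes rose and 1 fell, with 3 and 1 without the pairing. The kinase gene Jak2 rose from 30.7 ± 3.24 to 55.5 ± 0.25 CPM, while Pim1 fell from 131 ± 8.28 to 94.2 ± 7.88 CPM.

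Nodal acts through activin receptors and is curbed by its own targets, the Lefty antagonists, whose transcripts were lower. Lefty1 fell from 74.3, 65.4 and 71.8 to 14.9, 9.38 and 18.5 CPM and Lefty2 from 105, 73 and 82.7 to 36.6, 18.9 and 25.4 CPM, both without overlap. The Lefty genes are near-identical copies, so reads may have been split between them. The receptor gene Acvr2b fell from 47.2 ± 7.01 to 28 ± 3.23 CPM and the signal transducer gene Smad3 from 50.4 ± 5.75 to 34.4 ± 4.44 CPM. Nodal itself moved from 101 ± 9.82 to 79.8 ± 13.3 CPM (adjusted p = 0.00248, 0.145 without the pairing and 5.15e-05 to 0.327 over the alternatives), and Furin, a protease that cleaves the Nodal precursor, from 97.5 ± 31 to 158 ± 35.1 CPM (adjusted p = 0.000418, 0.107 without the pairing and 6.07e-09 to 0.369 over the alternatives). Of 16 genes of the pathway 6 fell and 5 rose, and without the pairing 4 fell and 1 rose.

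Several receptors and ligands of the TGF-beta and BMP families were higher. Tgfbr2, the ligand-binding TGF-beta receptor, rose from 19.3, 17.7 and 29.9 to 94.5, 81.1 and 108 CPM, without overlap. Acvrl1, a receptor best known from endothelium, rose from 9.68 ± 2.21 to 23.4 ± 9.2 CPM, the coreceptor gene Tgfbr3 from 8.13 ± 3.46 to 21.7 ± 3.68 CPM, and Id1, a direct BMP target, from 60.8 ± 6.39 to 89.2 ± 7.36 CPM. Of 25 receptors and targets 12 rose and 4 fell, with a median log2 fold change of 0.27, and 7 rose without the pairing. Among all tested genes 21.1% rose and 19% fell, and 7.16% rose without the pairing. The genes named as BMP ligands were listed after their values had been seen. With the protease gene Bmp1 counted among them, 6 of 7 rose, 4 of them also without the pairing. Bmp8b rose from 3.1, 3.5 and 3.48 to 13.1, 21.2 and 8.53 CPM and Bmp1, a procollagen protease named with the family, from 11.9, 18.7 and 28.9 to 67.6, 85.1 and 82.7 CPM. Both had all knockdown libraries above the controls. Bmp2 moved from 6.93 ± 6.21 to 22.8 ± 12.8 CPM (adjusted p = 0.00143, 0.138 without the pairing and 3.63e-07 to 0.374 over the alternatives).

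Genes of the FGF pathway changed in both directions. Beside the falls of Fgf15, Fgf17 and Fgf4 described above, the receptor gene Fgfr4 rose from 19, 33.7 and 37.9 to 87.4, 116 and 126 CPM and Fgfr3 from 17.2, 22.9 and 36.6 to 55.4, 60.9 and 83.8 CPM. Fgfr4 had its lowest knockdown library more than 2-fold above its highest control. The ligand gene Fgf10 rose from 34.5 ± 11.6 to 93 ± 22.1 CPM. Among targets of ERK signalling Dusp6 rose and Etv5 fell (168 ± 10.1 to 120.3 ± 9.27 CPM), and Egr1 moved from 74.3 ± 55.7 to 39.8 ± 24.4 CPM (adjusted p = 0.000309, 0.384 without the pairing and 4.00e-09 to 0.949 over the alternatives). In all 10 of 22 genes rose and 6 fell, against 21.1% and 19% of all tested genes. The Wnt pathway was similarly mixed, with 12 of 37 genes higher and 10 lower, and 7 and 6 without the pairing. The ligand gene Wnt8a rose from 0.49, 0.584 and 0.756 to 2.61, 4.43 and 3.54 CPM, Wnt6 from 24.1 ± 4.13 to 60.1 ± 7.01 CPM and the feedback target Axin2 from 60.5 ± 3.85 to 109 ± 17.4 CPM. The target gene Cdx4 rose by 2.42 ± 0.35 on the log2 scale. Notum, a secreted inhibitor that strips Wnt of its lipid, fell from 116, 127 and 106 to 44.4, 52.1 and 32.7 CPM, and the effector Tcf7l2 fell from 27.2 ± 0.429 to 13.3 ± 1.35 CPM. Lef1 and Tcf7l1 fell as well, and Tcf7, the remaining effector of that family, which was added after its values were seen, moved from 98.9 ± 13.8 to 76.9 ± 7.38 CPM (adjusted p = 0.00108, 0.0933 without the pairing and 8.31e-07 to 0.787 over the alternatives).

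Genes of retinoic acid turnover shifted between family members. Cyp26b1, which degrades retinoic acid, rose from 1.63, 1.46 and 4.08 to 10.8, 11.5 and 27.5 CPM, and the synthesis enzyme genes Rdh10 and Aldh1a3 rose from 16.5 ± 2.77 to 36.3 ± 11.8 and from 2.07 ± 0.885 to 10.8 ± 1.1 CPM. Aldh1a2, the main embryonic synthesis enzyme, fell from 10.6 ± 1.01 to 4.51 ± 0.951 CPM. The cellular binding protein genes Crabp1 and Crabp2 fell from 29.4 ± 3.52 to 14.4 ± 2.73 and from 10.7 ± 2.05 to 4.56 ± 0.686 CPM, and the receptor gene Rara also fell (log2 fold change -0.48 ± 0.062). Of the 17 genes 4 rose and 6 fell, and 3 and 5 did without the pairing.

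Many neuronal genes were lower. Of 12 neuroectoderm genes 6 fell and 1 rose (median log2 fold change -0.73), and of 28 neuronal genes of the kind that the repressor REST is known to silence 16 fell, 8 of them by at least 2-fold, and 5 rose (median -0.66). Without the pairing 4 and 12 fell. Of all tested genes 19% fell with the pairing and 5.68% without it. REST can recruit Sin3a through its amino terminus. Elavl3, a neuronal RNA-binding protein gene, fell from 44.6, 49.9 and 49.7 to 11.4, 15 and 8.53 CPM and Tubb3, the neuronal beta-tubulin gene, from 95.9, 78.7 and 97.5 to 39.9, 30.9 and 30.9 CPM. The dendritic gene Map2 fell from 24.5 ± 2.4 to 8.72 ± 4.2 CPM, and the neurofilament genes Nefh and Ina fell with log2 fold changes of -0.91 ± 0.062 and -0.78 ± 0.055. The groups did not overlap for Elavl3 and Tubb3. Against this direction Vgf, a neuropeptide precursor gene, rose from 1.37 ± 0.265 to 4.72 ± 1.97 CPM and the synaptic gene Unc13a from 44.3 ± 9.7 to 76.1 ± 14.9 CPM. Of 53 axon guidance genes 18 rose and 16 fell, 11 and 6 without the pairing. The secreted repellent gene Slit3 fell from 13.7 ± 4.66 to 2.92 ± 1.28 CPM and its receptor gene Robo1 from 136 ± 29 to 61.5 ± 18.9 CPM, while the semaphorin receptor gene Plxnc1 rose from 4.38 ± 1.84 to 16 ± 2.94 CPM and Epha1 from 19.7 ± 8.33 to 52.8 ± 12.5 CPM.

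Markers of primitive endoderm, an extraembryonic lineage into which some cells of such cultures differentiate, were higher with the pairing and rested on it. The fall or rise of a lineage gene in such bulk RNA cannot separate a change in the number of cells of a type from a change in RNA per cell. Of 20 tested genes 12 rose, 5 by at least 2-fold, with a median log2 fold change of 0.74. Foxa2, a forkhead factor of endoderm, measured 7.68, 5.84 and 30.8 CPM in the controls and 40.5, 33.1 and 57.5 CPM in the knockdown, and Gata6, the factor that specifies the lineage, 57.2, 61.6 and 139 and 199, 173 and 214 CPM. Pdgfra, its surface marker, measured 68.5, 92.5 and 232 and 318, 320.5 and 403 CPM. Control replicate 3 stood far above the other controls in all 3 genes. In 14 of the 20 genes it was at least 2-fold above the mean log2 level of the other controls. The median difference was 1.27, 0.97 and 0.38 on the log2 scale in pairs 1, 2 and 3. Without the pairing no member passed in edgeR (3 did at an unadjusted p under 0.05), while DESeq2 with the pairing called 15 and the paired edgeR fit without replicate 3 called 18. The adjusted p without the pairing was 0.144 for Foxa2 (1.60e-12 to 0.356 over the alternatives), 0.0623 for Gata6 (6.70e-13 to 0.191) and 0.0758 for Pdgfra (2.96e-06 to 0.227). Control replicate 3 was also high in many other genes that rose: of the 636 that rose by at least 2-fold, 178 (28%) had it at least 2-fold above the mean log2 level of the other controls. The same held for 3.06% of all tested genes, and for 0.93% of the 645 that fell. The median log2 difference of the risen genes was 1.56, 1.44 and 1.20 in pairs 1 to 3, so the third pair had the smallest.

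The summed CPM of 7 defining primitive endoderm markers was 282, 294 and 975 in the controls and 999, 874 and 1389 in the knockdown, and 4 of the 7 rose. The sum of 8 markers of embryonic stem cells was 1581, 1442 and 1456 CPM in the controls and 1456.5, 1273 and 1403 CPM in the knockdown, so markers of the labelled cell type were present throughout, 4 of the 8 falling. The 6 trophectoderm markers summed to 23.7, 26.1 and 41.9 CPM in the controls and 53, 62 and 76.4 CPM in the knockdown, the groups apart. Of the 5 tested 4 rose and 1 fell with the pairing. Against the sum, Krt7 measured 1.31, 2.48 and 4.69 CPM in the controls and 0.461, 1.04 and 2.41 CPM in the knockdown. The 10 markers of fibroblasts, which serve as feeder cells in other cultures, summed to 47.2, 93.7 and 52.9 CPM in the controls and 41.5, 57.2 and 41.5 CPM in the knockdown, 2 of the 4 tested falling, with Twist2 and Prrx1 at 3 reads or fewer in every library. Of the longer list of 12 tested fibroblast and mesenchymal genes 5 rose and 3 fell, and 3 and 1 did without the pairing. The 5 endothelial markers summed to 211, 237 and 178 CPM in the controls and 174, 199 and 131 CPM in the knockdown. Of the 4 tested 1 rose and 2 fell with the pairing. Against the sum, Cdh5 measured 4.41, 6.57 and 24.8 CPM in the controls and 23.3, 21.5 and 40.4 CPM in the knockdown. The part of other cell types in the gene changes above was not tested.

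**Figure D4:**
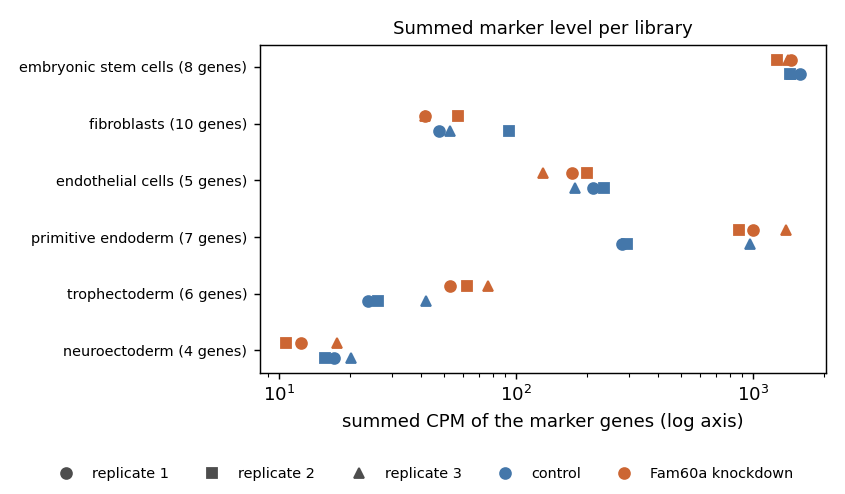
Summed TMM-scaled CPM of marker genes for 6 cell types in each of the 6 libraries on a log axis; blue symbols are controls, orange symbols Fam60a knockdown libraries, and shapes mark replicates 1 to 3. The primitive endoderm sum of control replicate 3 lies among the knockdown values, while the trophectoderm sums of the groups do not overlap.

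Of 16 trophectoderm genes 8 rose and 3 fell, 4 and 1 without the pairing. The shares over all tested genes were 21.1% higher and 19% lower, and 7.16% and 5.68% without the pairing. In 6 of the 16 genes control replicate 3 was at least 2-fold above the mean log2 level of the other controls, against 3.06% of all tested genes. Hand1, a factor of trophoblast giant cells and mesoderm, rose from 1.8, 2.63 and 6.8 to 12, 17.5 and 15.9 CPM, and Gata3 and Tead4, early regulators of the lineage, rose from 5.9 ± 0.833 to 13.1 ± 2.94 and from 81.6 ± 9.17 to 128 ± 11.4 CPM. The lineage regulator gene Cdx2 measured 0.653, 0.438 and 4.69 CPM in the controls and 3.23, 1.95 and 11.7 CPM in the knockdown (adjusted p = 0.00415, 0.35 without the pairing and 0.000423 to 0.832 over the alternatives). Of 13 primitive streak and mesoderm genes 7 rose and the others did not pass, with a median log2 fold change of 0.82, and 5 rose without the pairing. The 4 defining mesoderm markers T, Mixl1, Mesp1 and Tbx6 did not share this rise. They summed to 4.41, 8.32 and 6.2 CPM in the controls and 6.91, 10.7 and 5.95 CPM in the knockdown. Only 1 of them was tested, and it was not called. Endothelial and blood genes were lower in 9 of 19 cases and higher in 4 (median -0.51), and in 7 and 3 without the pairing. Rasgrp1, a Ras activator of lymphocytes, fell (log2 fold change -3.15 ± 0.36), as did the progenitor surface gene Cd34 from 11.3, 11.2 and 9.98 to 3.38, 2.48 and 1.77 CPM and the angiopoietin receptor gene Tek from 37.3 ± 13.1 to 12.9 ± 5.56 CPM, while the myeloid factor gene Spi1 rose from 8.31 ± 1.27 to 21.9 ± 3.65 CPM.

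Cell adhesion and matrix genes beyond the integrins changed in both directions. Of 24 cadherins 9 rose and 8 fell, 3 and 5 without the pairing. The giant cadherin gene Fat2 had 3 reads in the whole knockdown group and 159 in the control group, which is a CPM ratio of 55.4 in favour of the controls (95% exact interval 18.6 to 272, counting error only). Cdh3, placental cadherin, fell from 47 ± 6.83 to 18.1 ± 5.83 CPM and Cdhr1 from 27.4 ± 2.03 to 8.15 ± 2.8 CPM. Of 36 collagens, laminins and lysyl oxidases 16 rose and 10 fell, but 4 and 5 without the pairing. For both lists the shares over all tested genes were 21.1% higher and 19% lower, and 7.16% and 5.68% without the pairing. Loxl4, which crosslinks collagen, rose from 0.817, 1.61 and 0.907 to 8.14, 13.8 and 8.05 CPM, without overlap.

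Among chromatin regulators, 10 of 29 Polycomb subunits rose and 7 fell, but 2 and 2 without the pairing. Of all tested genes 21.1% rose and 19% fell, and 7.16% and 5.68% without the pairing, so the latter counts are near the background. Bmi1, a subunit of the ubiquitin ligase complex, rose from 33.9 ± 2.97 to 63 ± 7.14 CPM, and Cbx2, which compacts chromatin, fell from 95.1 ± 2.51 to 62.2 ± 9.21 CPM. Of 12 genes of the Myc, Max and Mxd network 4 rose and 4 fell, 1 and 1 without the pairing. Mga, a Max partner that represses germline genes, moved from 409.6 ± 58.5 to 299.9 ± 40.3 CPM (adjusted p = 0.000111, 0.0569 without the pairing and 1.39e-10 to 0.692 over the alternatives), and Myc measured 110.1 ± 3.13 and 107 ± 1.56 CPM (log2 fold change -0.044 ± 0.041, adjusted p = 0.429). Of 33 germline and meiosis genes 8 rose and 10 fell (2 and 4 without the pairing), and of 25 imprinted genes 3 rose and 8 fell (2 and 3). The shares of these 2 lists that rose are near or below the 21.1% of all tested genes. Their shares that fell are above the 19% of all tested genes, and above the 5.68% without the pairing.

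Few genes of respiration and translation passed the test. Of 29 nuclear genes of oxidative phosphorylation none passed in edgeR, with log2 fold changes between -0.12 and 0.12. At an unadjusted p under 0.05 there was 1, and DESeq2 called 0, while 2 fell in edgeR without replicate 3. Of 48 cytosolic ribosomal protein genes 1 fell, Rpl15 (log2 fold change -0.39 ± 0.057, adjusted p = 0.055 without the pairing and 3.25e-05 to 0.513 over the alternatives). These shares stand against 40.1% of all tested genes. Many of these genes are short and highly expressed, where the authors' removal of duplicate reads limits the counts, and its part in the result was not tested. Of 25 glycolysis genes 5 fell and 1 rose, and of 28 genes of cholesterol and fatty acid synthesis 8 fell and 2 rose. Without the pairing 1 and 2 genes of these lists passed. Interferon response genes rose in 7 of 18 cases and fell in 3, and did so in 3 and 1 without the pairing.

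**Figure D5:**
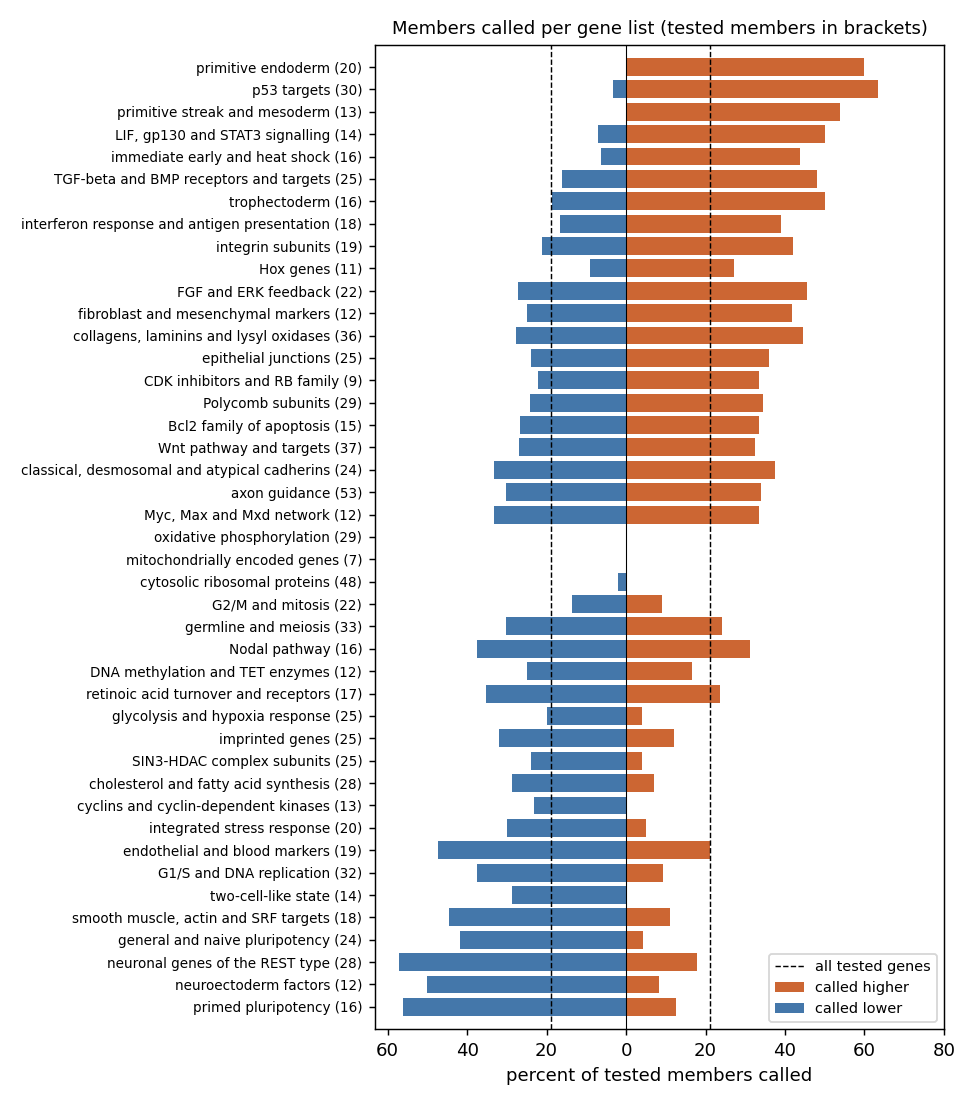
Percent of tested members called higher (orange, to the right) and lower (blue, to the left) with the libraries paired, for each gene list other than those drawn up after values were seen. Lists are ordered by the percent called higher minus the percent called lower, with the number of tested members in brackets. Dashed lines mark the shares of all tested genes, 21.1% higher and 19% lower. Among the lists shown, the longest bars to the right are those of p53 targets and primitive endoderm, those to the left belong to primed pluripotency and neuronal genes, and the oxidative phosphorylation and mitochondrially encoded lists have no bar.

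The Fam60a knockdown was also set against the Sin3a knockdown of the same cells, made with the same vector and protocol, to ask which changes differed between depletion of the subunit and of its scaffold. Because both knockdowns share the 3 controls, their changes against control are not independent, so the test was on the difference between the knockdowns in a model of all 9 libraries. Of 14465 tested genes 672 differed (4.65%), 468 higher in the Fam60a knockdown (3.24%) and 204 lower (1.41%). That count rests on Sin3a knockdown replicate 3, which had 2607872 reads, fewer than the other libraries, and 90 reads of mitochondrially encoded genes against at least 6268 elsewhere. Without it 5321 of 14735 genes differed (36.1%, 19.4% higher and 16.7% lower). Leaving out the libraries of replicate 1 or of replicate 2 left no call in edgeR (1492 and 1292 genes at an unadjusted p under 0.05), so each difference named below lost its call there, while DESeq2 on all libraries called 1513. Of the genes called in the Fam60a knockdown against control, 364 differed between the knockdowns both with and without Sin3a replicate 3, 252 higher and 112 lower in the Fam60a knockdown.

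Itga4 did not differ detectably: its level was 33.2, 32.5 and 8.53 CPM in Sin3a knockdown replicates 1 to 3, and the log2 difference was -0.055 ± 0.29 (adjusted p = 0.925). Ccnd1 was lower in the Fam60a knockdown, with a log2 difference of -0.67 ± 0.13 (adjusted p = 0.0402, and 0.00196 without Sin3a replicate 3). The genes with the largest higher values in the Fam60a knockdown were close to the detection floor in the Sin3a knockdown. Ly6c1, a surface antigen of the Ly6 family whose members are similar in sequence, had 113 reads over the Fam60a knockdown and 0 over the Sin3a knockdown, at least 27.0-fold higher when 3 reads over the group are taken as the floor. The calcium-binding protein gene S100a4 had 48 and 0 reads, at least 11.5-fold higher. Wnt3a, a Wnt ligand, had 197 and 4 reads, a ratio of 35.3 (95% exact interval 13.6 to 131), and the collagen gene Col6a3 had 65 and 2 reads, a ratio of 23.3 (6.19 to 196). Loxl4, with 209 and 7 reads, and the cytokine gene Osm, with 170 and 6, had ratios of 21.4 and 20.3. In the other direction Lef1 had 3.69 ± 2.68, 17 and 22.4 ± 8.05 CPM in the Fam60a knockdown, the controls and the Sin3a knockdown, and Armcx2 11 ± 5.49, 62 and 51.9 ± 19 CPM in the same order. The methyltransferase gene Prmt8 had 7.56 ± 2.55, 32.6 and 45 ± 1.77 CPM and Gfod1 21.2 ± 2.76, 54.9 and 90.7 ± 13 CPM, so both were lower than control in one knockdown and higher in the mean of the other. Their log2 differences were -2.72 ± 0.28, -2.26 ± 0.33, -2.61 ± 0.21 and -2.09 ± 0.17. Cfap61 and the calcium channel subunit gene Cacng4 differed by -2.39 ± 0.31 and -2.27 ± 0.30. The adjusted p of these 12 differences lay between 0.00722 (Prmt8) and 0.0296 (S100a4) in edgeR.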

How the data were processed

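Per the labels' protocols, DNase-treated total RNA was made into stranded TruSeq libraries and read from single ends. The deposited values are raw read counts per Ensembl gene, 37990 genes in each library. Per the submitters' processing notes STAR 2.4.0j, Picard, Subread and featureCounts were used. Per the file headers the counts come from alignments with duplicates removed, which limits the counts of short, highly expressed genes. The genome build and annotation are not given in the sources used here. Gene symbols and GRCm38 positions came from GENCODE M21, which matched 32918 genes, and promoter sequences from RefSeq (GRCm38.p6).

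Counts of the 6 libraries were tested with edgeR 4.0.16 in R 4.3.3 (TMM scaling, filterByExpr, robust quasi-likelihood test, group plus replicate number, adjusted p threshold 0.05 by Benjamini-Hochberg over 14230 genes). The replicate number was kept as a block because the controls were generated in parallel and same-numbered libraries deviated together: the correlation of deviations from the group means over genes was 0.540 to 0.631 in the 3 same-numbered pairs and -0.447 to -0.0555 in the 6 others. Deviations from a group mean cancel within the group, so positive values in the same-numbered pairs make the others negative on balance. The negative values are therefore no separate support for the pairing. The replicate numbers alone carry the pairing, and p-values measure the spread between these samples. CPM are computed from the counts, pair differences with a prior count of 2. A floor of 3 reads equals 0.391 to 0.494 CPM in a library, and intervals cover counting error only. The scripts' tests were checked on simulated counts.

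Genes were named by a rule: Sinhcaf, Sin3a, Ccnd1 and Itga4; the 12 largest rises and falls of called coding genes averaging 10 CPM or more, with the same sign in all pairs and no overlap of groups; the 8 largest rises and falls in CPM; from each list, the members with the smallest adjusted p, at most 4 per direction; a set of regulators whatever they did; and the 6 largest differences from the Sin3a knockdown per direction. The members and lists were chosen with earlier results of these data known. Alternatives were DESeq2 1.42.0 or its size factors, other filters, no replicate block, all 9 libraries, a GC correction with the block, and leaving out pairs or single libraries. A few list members are not reported here.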

Additional observations from a re-analysis of the deposited data

How the results depend on the processing

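The fall of Sinhcaf was called under all alternatives run, at log2 fold changes from -1.32 to -1.13. The count of 5713 called genes became 1827 without the replicate block, 2580 with DESeq2, 887 with all 9 libraries and 423 with all 9 and no replicate block. Each is the total of its setting, and not only genes among the 5713. Leaving out 1 replicate pair gave 3193 to 6774 genes, and leaving out 1 library without the block gave 1037, 1253 and 1304 (knockdown replicates 1 to 3) and 702, 885 and 1675 (control replicates 1 to 3). The count of 1281 genes called with at least a 2-fold change became 795 without the block, 653 with all 9 libraries and 346 with all 9 and no block, again as totals. Leaving out 1 pair gave 1021 to 1354 genes called and at least 2-fold in Fam60a knockdown against control, and 1 library without the block 555, 599 and 643 (knockdown) and 401, 444 and 909 (control). The 672 differences from the Sin3a knockdown became 5321 without Sin3a knockdown replicate 3, 1513 with DESeq2 and 443 without the block, and 0 to 6462 when 1 pair was left out (0 without replicate 1 or 2). The cause was not tested. Of the 361 named genes that were called, the pairing-free model kept 197 calls, DESeq2 266, all 9 libraries 143, the GC correction 339 and DESeq2 size factors 359. Leaving out pair 1, 2 or 3 kept 291, 277 and 347. Without Fam60a knockdown replicate 3 and the block, BC025446 (-0.55), Hnf4a (-0.071) and Ihh (-0.20) changed sign. Pou5f1, not called, lay at -0.082 without replicate 3 and turned to 0.0032 with the GC correction, 0.020 without replicate 2, 0.032 without Fam60a knockdown replicate 2 and 0.011 without control replicate 1, both without the block. No other named gene that was called changed sign. Below 2 CPM 24.2% of genes were called, against 42.1% between 20 and 50 CPM, and the spread between libraries was also larger at low CPM.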

Other observations

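A few gene families that no list above held were read after their values had been seen, and are given as values. Of 29 tested sorting nexins, which coat and tubulate endosomes, 16 rose and 1 fell (median log2 fold change 0.27, against -0.012 over all tested genes), and 4 rose without the pairing. Snx33 rose from 5.65 ± 0.507 to 23.7 ± 3.1 CPM (SD, n = 3 per group) and Snx7 from 19 ± 7.49 to 38.9 ± 7.68 CPM (adjusted p = 0.000705, 0.0525 without the pairing and 1.93e-09 to 0.153 over the alternatives). Of 10 annexins, calcium-dependent membrane-binding proteins, 6 rose and 1 fell, and 3 and 1 did without the pairing. Anxa3 rose from 21.2 ± 11.9 to 73 ± 8.41 CPM and Anxa5 from 42.5 ± 2.24 to 80.4 ± 9.2 CPM, while Anxa6 fell from 149.8 ± 6.08 to 105 ± 16.6 CPM.

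Genes that changed by at least 2-fold in the same direction sat next to each other in 12 places, each of 3 or more tested neighbours (39 of 13900 placed genes, 8 places higher and 4 lower, GRCm38). The longest held 5 genes on chromosome 13, between 93616675 and 94195409, with the methyltransferase genes Bhmt and Bhmt2 and with Dmgdh, followed by Arsb and Lhfpl2. Dmgdh measured 17, 22.3 and 11 CPM in the controls and 75.3, 79.8 and 43.1 CPM in the knockdown, and Bhmt2 rose from 6.69 ± 0.43 to 28.6 ± 10.3 CPM. Bhmt and Bhmt2 are similar in sequence, and the rises of Bhmt, Arsb and Lhfpl2 were not called when all 6 libraries were tested without the pairing (adjusted p = 0.0611, 0.0734 and 0.314, with ranges over the alternatives of 8.94e-08 to 0.18, 9.54e-06 to 0.188 and 1.63e-11 to 0.686). On chromosome 5, between 37028335 and 37425055, Jakmip1, Crmp1, Evc and Evc2 fell side by side, so that the cilium genes Evc and Evc2 of the Hedgehog list and the primed-state gene Crmp1 are neighbours. Jakmip1 fell from 24.7 ± 3.47 to 10.9 ± 1.48 CPM. Crmp1 and Evc overlap on opposite strands.

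On the X chromosome, between 103460366 and 103623790, the neighbouring genes Xist and Ftx of the X inactivation centre were higher. Ftx, a noncoding activator of Xist, rose from 5.06, 9.63 and 15.1 to 23.7, 36 and 24.3 CPM, without overlap. Xist measured 4.08, 13.4 and 11.8 and 20.9, 50.2 and 20.4 CPM (adjusted p = 0.00664, 0.0779 without the pairing and 3.05e-11 to 0.249 over the alternatives), and Tsix, its antisense partner, moved from 31.2 ± 12.5 to 23.9 ± 6.21 CPM (adjusted p = 0.0286, 0.463 without the pairing and 0.000874 to 0.967 over the alternatives). The deposited files' names carry the reverse-strand setting of featureCounts, by which Xist and Tsix would be counted apart. Among 168 tested processed pseudogenes, whose reads may also come from their parent genes, 20 were called with a fall of at least 2-fold, and among 111 antisense genes 4 were called with a rise and 11 with a fall of that size, against 4.47% higher and 4.53% lower of all tested genes.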
